A study of Homo sapiens with 8 samples.

Results

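The transcripts described here were already present in a TRAIL-resistant leukaemia clone, lay at about the same level in its sensitive parent, and were brighter after the histone deacetylase inhibitor SAHA (suberoylanilide hydroxamic acid, vorinostat). They comprise 102 of the 22184 array features (1 feature is 1 probe sequence). Members were chosen on log2 signals quantile-normalized over all features and averaged over the 2 arrays of each group. A member had a detection p-value below 0.05 on both arrays of the untreated clone and lay less than 0.3 from the parent. Its mean was at least 0.8 higher at 1 µM SAHA than in the untreated clone, with both 1 µM arrays above both untreated arrays. The 1 µM, untreated TR1 and WT arrays therefore chose the members, and differences among those groups are given as a description. The 0.5 µM arrays chose none.

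Jurkat is a human T cell leukaemia line. The clone TR1 came from Jurkat cells kept under 1000 ng/mL TRAIL (a death-inducing ligand of the TNF family) for 12 weeks, and it is 1 clone, so the study holds no other resistant line. The 4 groups were TR1 without SAHA, TR1 with 0.5 µM SAHA for 12 h, TR1 with 1 µM SAHA for 12 h, and TRAIL-sensitive Jurkat (WT) without SAHA. All 3 TR1 groups share the TRAIL selection, and no WT culture with SAHA is among the 4 groups. Each group had 2 Illumina HumanRef-8 arrays of biological duplicates, lettered A and B in the data.

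SAHA blocks zinc-dependent histone deacetylases, the enzymes that remove acetyl groups from the lysines of histones and of other proteins. Acetylated histone tails loosen their hold on DNA and are bound by bromodomain proteins that recruit the transcription machinery. In leukaemia cells such inhibitors are known to raise CDKN1A, which encodes the cell cycle inhibitor p21, and to affect cytoskeletal and cell surface genes.

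All values below are log2 signals after background correction and quantile normalization (neqc in limma), and differences are log2 differences of group means. On this scale the distance from WT can exceed the 0.3 of the selection scale, as it did for CCM2L (0.53) and BFSP2 (0.55). A call means an adjusted p-value below 0.05 from a limma fit of all 8 arrays, adjusted by the Benjamini-Hochberg method over the 13407 features that were detected on at least 2 arrays. All 102 members passed that filter. Quantile normalization makes each array's distribution the same, so a change is relative to the other transcripts.

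For 4 of the genes on which the results turn, the window from 250 bases before to 50 bases after an annotated start is shown, from RefSeq on GRCh38.p14. RefSeq gives some genes several starts, and the window listed first was used: SEPTIN4 had 4 windows listed and H2BC5 had 2. The start used lies 12.3 kb inside the annotated gene for SEPTIN4, 2.25 kb for CDKN1A and 0.438 kb for CCNA1, and which start these cells use was not tested. H2BC5 lies at chr6:26157871-26158170 on the plus strand, CDKN1A at chr6:36678464-36678763 on the plus strand, CCNA1 at chr13:36431705-36432004 on the plus strand, and SEPTIN4 at chr17:58532011-58532310 on the minus strand. They are shown because H2BC5 and SEPTIN4 had the largest rises at 1 µM, CCNA1 was among the largest at 0.5 µM, and CDKN1A is the known inhibitor target. Capitals mark GC boxes, spelled GGGCGG, which reads CCGCCC on the other strand, the CCAAT box, which reads ATTGG on the other strand, and TATA boxes, spelled TATAAA, which reads TTTATA on the other strand, and each sequence runs 5′ to 3′ on the gene's strand.
H2BC5: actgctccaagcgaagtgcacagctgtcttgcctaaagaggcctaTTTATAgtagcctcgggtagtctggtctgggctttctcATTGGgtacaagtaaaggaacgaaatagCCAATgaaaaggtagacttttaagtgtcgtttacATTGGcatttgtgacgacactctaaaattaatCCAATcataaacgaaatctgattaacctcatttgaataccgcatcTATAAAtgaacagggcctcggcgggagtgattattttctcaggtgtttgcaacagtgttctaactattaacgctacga
CDKN1A: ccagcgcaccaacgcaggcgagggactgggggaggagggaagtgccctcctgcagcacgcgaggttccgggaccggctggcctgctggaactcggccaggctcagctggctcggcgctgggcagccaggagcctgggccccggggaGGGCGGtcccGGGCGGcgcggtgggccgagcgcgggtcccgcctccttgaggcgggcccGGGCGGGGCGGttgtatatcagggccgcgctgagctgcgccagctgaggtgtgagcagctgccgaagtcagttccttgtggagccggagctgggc
CCNA1: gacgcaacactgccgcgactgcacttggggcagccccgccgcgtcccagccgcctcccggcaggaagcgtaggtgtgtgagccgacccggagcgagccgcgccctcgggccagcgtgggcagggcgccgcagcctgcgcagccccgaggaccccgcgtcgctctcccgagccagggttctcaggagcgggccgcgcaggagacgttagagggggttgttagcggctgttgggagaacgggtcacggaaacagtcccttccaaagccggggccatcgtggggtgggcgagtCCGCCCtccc
SEPTIN4: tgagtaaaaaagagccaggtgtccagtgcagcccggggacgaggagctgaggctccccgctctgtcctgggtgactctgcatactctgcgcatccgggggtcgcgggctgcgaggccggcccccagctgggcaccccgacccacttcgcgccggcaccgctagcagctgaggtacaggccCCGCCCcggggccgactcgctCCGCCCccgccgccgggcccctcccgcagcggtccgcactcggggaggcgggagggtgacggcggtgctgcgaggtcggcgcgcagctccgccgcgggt

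The H2BC5 window held 4 CCAAT boxes, 2 TATA boxes and 0 GC boxes, and its GC content was 41.3%. CDKN1A, by contrast, had 4 GC boxes, of which a pair overlaps, with a GC content of 74.3%. SEPTIN4 had 2 GC boxes and CCNA1 had 1, and neither window held a CCAAT or TATA box. Windows were matched for 75 of the 94 member genes, of which 21 had several, and the first was taken. Both strands were searched for the 3 boxes above, for the E-box CACGTG and for the cAMP response element TGACGTCA, whose letters contain none of the other motifs. A GC box was present in 57 of the 75 member windows (76.0%) and in 67.8% of the 9013 windows of tested genes. A CCAAT box was present in 31 (41.3%) against 37.2%, a TATA box in 5 (6.67%) against 6.0%, an E-box in 4 (5.33%) against 10.1%, and a cAMP response element in 2 (2.67%) against 3.20%. The median GC content was 69.3% in member windows and 64.7% in windows of tested genes. These shares describe letters in the windows, not bound sites.

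Of the 102 features, 97 had a gene in the platform annotation, which made 94 genes, and 5 had none and are given by probe ID. H2BC5, TSC22D1 and ATP1B1 had 2 member features each. All 102 were detected on every 0.5 µM and 1 µM array, and 100 were detected on all 8 arrays. CCM2L and TMEM169 were each detected on 1 of the 2 WT arrays. The mean signal in untreated TR1 ran between 5.24 and 13.27 with a median of 8.28, beside a median of 8.21 over the 11610 features detected on both untreated TR1 arrays, and 50 of the 102 lay below that median. Just inside the 0.8 limit of the selection scale were ERMP1 (0.802), LEF1 (0.803) and TRAK2 (0.805), and just outside it were INSIG2 (0.797), ILMN_1713744 (0.794) and RWDD2A (0.794). Close to the limit on the distance from WT were HEY1 (0.297), MMD (0.296) and TLE1 (0.290) inside it and SGK1 (-0.303), GNG7 (-0.310) and AXIN2 (0.316) outside it. A further 84 features met every other condition and missed that one.

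At 1 µM, by the way they were chosen, all 102 features were higher than in untreated TR1, by a median of 1.19 and a range of 0.81 to 2.50. The median corresponds to 2.27-fold, and 73 were at least 2-fold higher. The limma fit called 96 of the 102, beside 12.6% of all features tested, and nothing is read from that count because the same contrast chose the members. Between untreated TR1 and WT, 1 member was called, BFSP2 (a lens filament protein), which was higher in TR1, where 3.94% of all features were called higher and 3.71% lower. That closeness too was a condition of the choice.

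The largest rises at 1 µM were those of H2BC5, a histone H2B gene, SEPTIN4, CRIP2, FSCN1, CCNA1, CDC42EP4, CCR7, CCM2L, CDKN1A and KCNS3. The brighter H2BC5 response came from probe ILMN_1651496, which read 6.93 and 6.77 in untreated TR1, 8.0 and 7.92 at 0.5 µM, 9.33 and 9.36 at 1 µM, and 6.72 and 6.53 in WT. Each dose stood clear of the one below it, and the WT arrays lay just under the untreated TR1 arrays. SEPTIN4, a septin whose shorter form ARTS promotes apoptosis, read 6.49 and 6.68 untreated, 8.71 and 8.47 at 0.5 µM, 9.19 and 8.96 at 1 µM, and 6.67 and 7.02 in WT. Most of its distance was covered by the lower dose. CDKN1A, whose window is printed above, read 7.33 and 7.40 untreated, 8.71 and 8.68 at 0.5 µM, 9.68 and 9.56 at 1 µM, and 6.91 and 7.47 in WT. Here WT array B lay just above both untreated TR1 arrays, and both doses were far above every untreated array.

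**Figure D1:**
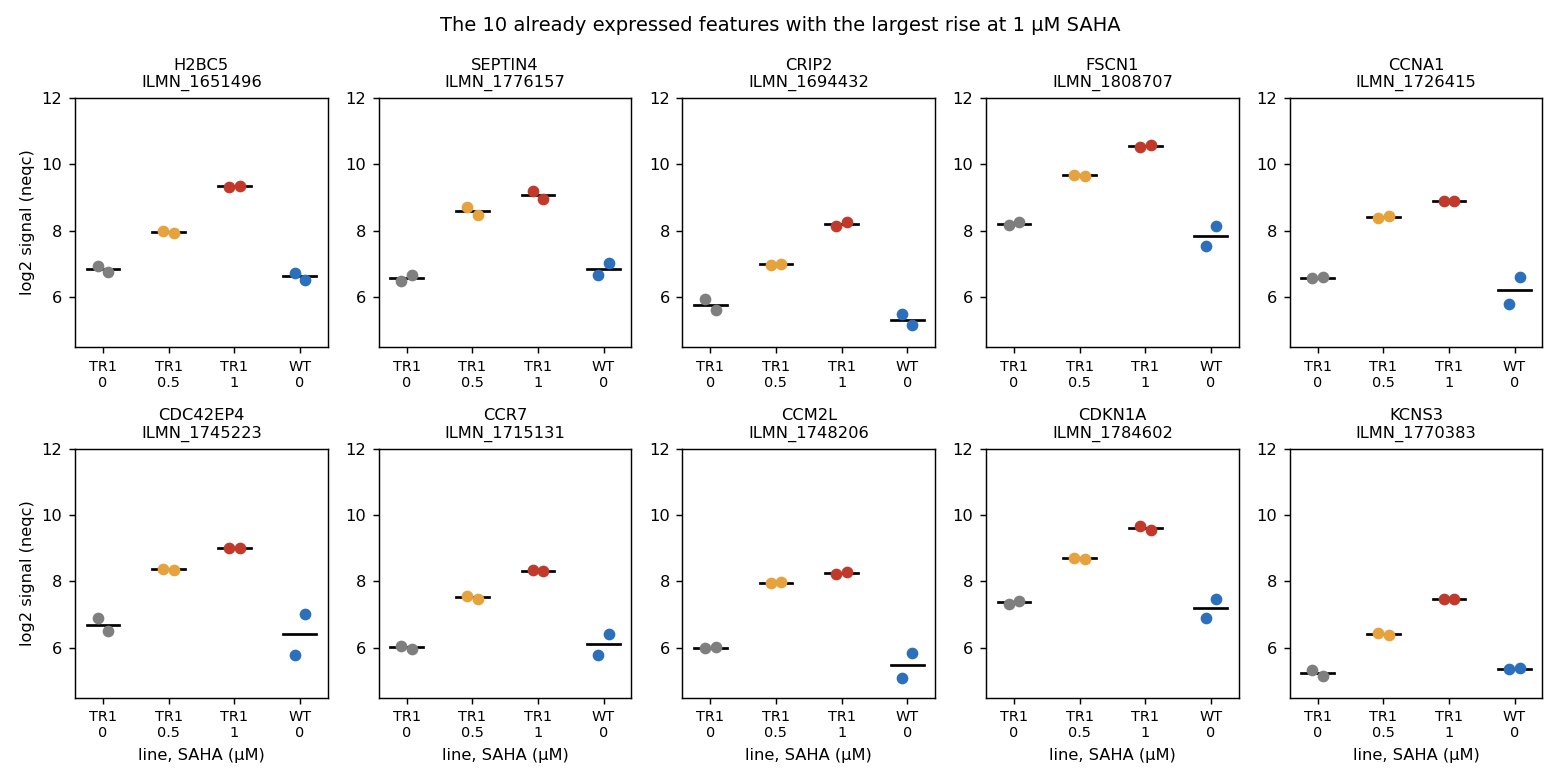
Log2 signal (y axis) of the 10 features with the largest rise at 1 µM SAHA, in untreated TR1, TR1 with 0.5 µM, TR1 with 1 µM and untreated WT (x axis); each point is 1 array and each bar the mean of 2. Both 0.5 µM arrays sit between the untreated TR1 and the 1 µM arrays in all 10 panels, and WT arrays A and B lie apart for CDC42EP4 (5.80 and 7.01).

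FSCN1, which encodes the actin-bundling protein fascin, read 8.17 and 8.25 untreated, 9.69 and 9.66 at 0.5 µM, 10.51 and 10.58 at 1 µM, and 7.55 and 8.16 in WT. CCNA1, a cyclin best known from the male germ line and from myeloid leukaemia, read 6.56 and 6.61 untreated, 8.40 and 8.43 at 0.5 µM, 8.89 and 8.89 at 1 µM, and 5.80 and 6.61 in WT. For both genes the SAHA arrays were clear of all 4 untreated arrays, and the WT duplicates were farther apart than the TR1 duplicates. CCR7, the chemokine receptor that guides T cells to lymph nodes, read 6.07 and 5.98 untreated, 7.57 and 7.47 at 0.5 µM, 8.33 and 8.30 at 1 µM, and 5.79 and 6.42 in WT. CRIP2, a LIM-domain protein, read 5.94 and 5.62 untreated, 6.97 and 7.0 at 0.5 µM, 8.14 and 8.28 at 1 µM, and 5.50 and 5.15 in WT. In contrast to SEPTIN4, CRIP2 gained about as much between the doses as below them.

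The 0.5 µM arrays give the measurement that chose no member. At this dose all 102 features had a positive difference from untreated TR1, with a median of 0.76 and a range of 0.19 to 2.01, while the median over all 13407 features was -0.01. Of the 102, 75 were called higher and 0 lower, beside 4.42% of all features called higher, and 27 were at least 2-fold higher. For 100 of the 102, both 0.5 µM arrays lay above both untreated TR1 arrays, beside 27.1% of all features. This contrast shares the untreated TR1 arrays with the choice of members, so a low reading there would raise both doses. In a bulk culture a change in the share of cells that express a transcript and a change in RNA per cell cannot be told apart.

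The median standard error of a difference between groups was 0.146, and with 2 arrays a group the p-values measure only the spread between these duplicates. The count of 75 fell without any 1 of the 4 arrays compared, and the share of all features called fell with it. The median difference of 0.76 became 0.81 and 0.74 without untreated TR1 array A or B, and 0.74 and 0.80 without 0.5 µM array A or B. Most of the 75 lost the call in at least 1 of the 8 fits that left out 1 array. H2BC5 (ILMN_1651496), SEPTIN4, CRIP2, FSCN1, CCNA1, CCR7, CCM2L, CDKN1A and KCNS3 were among those that kept it. How many of all features would do so was not computed.

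A second view sets the 0.5 µM arrays against WT, a difference that holds no untreated TR1 array. Those arrays still enter its p-values, since the fit takes the spread from all 8 arrays. All 102 members again had a positive difference, with a median of 0.79 and a range of 0.06 to 2.49, beside a median of -0.02 over all features. The fit called 80 higher and 0 lower, where 11.5% of all features were called higher, and 29 were at least 2-fold higher. With only the 4 arrays compared in the fit, 69 members were called higher, beside 8.68% of all features. Both 0.5 µM arrays lay above both WT arrays for 91 members, beside 29.4% of all features. This contrast also holds the difference between the lines, which the choice of members kept small, so the WT arrays are not independent of the choice either. Not all of the 80 stayed called in the 8 fits that left out 1 array. Of the members, 73 were called in both 0.5 µM comparisons, and the share of all features called in both was not computed.

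**Figure D2:**
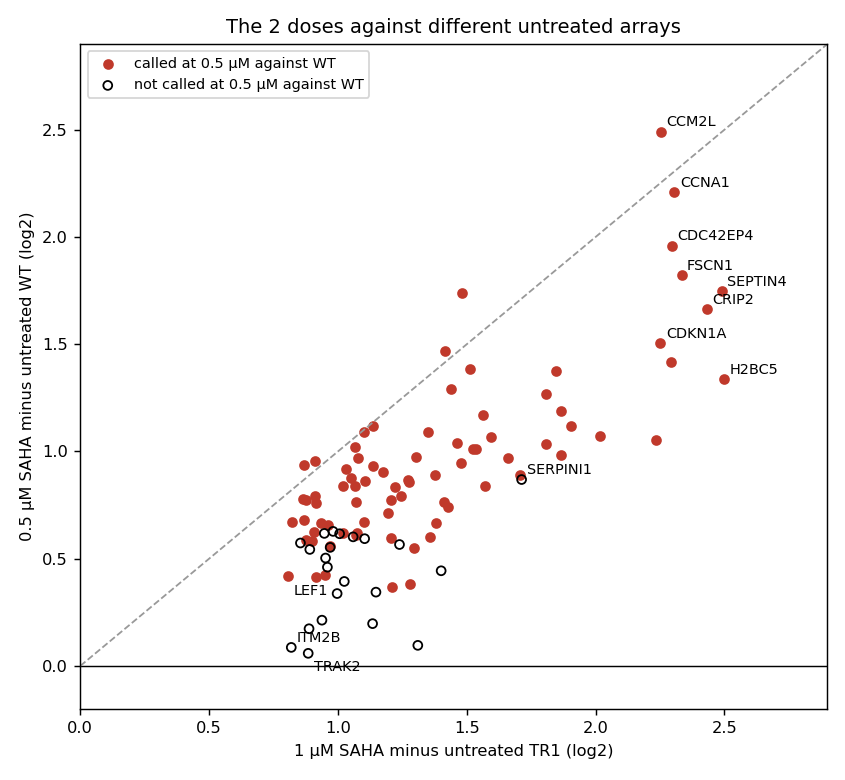
Each point is 1 of the 102 features, with the log2 difference of 1 µM SAHA from untreated TR1 on the x axis and of 0.5 µM SAHA from untreated WT on the y axis, which share no array; the dashed line marks equal differences and filled points were called on the y axis. All points lie above 0, between 0.06 and 2.49, and CCM2L is the highest.

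The largest differences at 0.5 µM were those of SEPTIN4, CCM2L, CCNA1, CDC42EP4 and CXCL16. SEPTIN4 was higher than untreated TR1 by 2.01 ± 0.16 (SE), or 4.02-fold (limma adjusted p = 0.000685), and higher than WT by 1.75 (adjusted p = 0.000421). CCM2L, a homologue of the cerebral cavernous malformation protein CCM2, read 5.98 and 6.02 untreated, 7.95 and 7.98 at 0.5 µM, 8.23 and 8.28 at 1 µM, and 5.09 and 5.85 in WT. Its 0.5 µM difference was 1.96 ± 0.21 (SE; limma adjusted p = 0.00229). CCNA1 was higher by 1.83 ± 0.22 (SE; limma adjusted p = 0.00361). CDC42EP4, an effector of the GTPase CDC42, rose by 1.66 ± 0.33 (SE; limma adjusted p = 0.023). Its larger error came with a wide WT pair, 5.80 and 7.01. CXCL16, a transmembrane chemokine, read 6.21 and 6.16 untreated, 7.62 and 7.90 at 0.5 µM, 8.13 and 7.96 at 1 µM, and 6.0 and 7.14 in WT, a rise of 1.58 ± 0.30 (SE; limma adjusted p = 0.0215).

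At the other end, ITM2B, ILMN_1696549, TRAK2, ANKMY2 and KIFC2 had the smallest differences at 0.5 µM, and none of these 5 was called against untreated TR1. ITM2B, a membrane protein that binds the amyloid precursor, read 11.41 and 11.59 untreated, 11.51 and 11.87 at 0.5 µM, 12.21 and 12.43 at 1 µM, and 11.33 and 11.88 in WT. Its 0.5 µM arrays overlapped the untreated arrays, with a difference of 0.19 (limma adjusted p = 0.624). TRAK2, an adaptor that links mitochondria to motor proteins, read 8.69 and 8.69 untreated, 8.96 and 9.09 at 0.5 µM, 9.55 and 9.60 at 1 µM, and 8.96 and 8.97 in WT. The 0.5 µM arrays of TRAK2 were above untreated TR1 but reached down to the level of WT. KIFC2, a kinesin, read 8.68 and 7.83 untreated, 9.10 and 8.26 at 0.5 µM, 9.14 and 9.24 at 1 µM, and 8.41 and 8.52 in WT. In KIFC2, array A stood above array B by a similar distance in both of the first 2 groups, and the groups overlapped.

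In 94 of the 102 members both 0.5 µM arrays lay between the untreated TR1 arrays and the 1 µM arrays, beside 1470 of the 13407 features tested (11%). Because the 1 µM and untreated arrays chose the members, the dose difference is a description. The 1 µM mean exceeded the 0.5 µM mean in all 102 members, by a median of 0.43 and a range of 0.02 to 1.38, and both 1 µM arrays lay above both 0.5 µM arrays in 96, beside 23.6% of all features. The fit called 7 members higher at 1 µM than at 0.5 µM, where 0.231% of all features were called higher. The 7 were both H2BC5 features, CRIP2, KCNS3, GJB2, MVP and ILMN_1696549. Leaving out any 1 of the 4 arrays compared brought that count to 0, leaving out either untreated TR1 array to 4, and leaving out either WT array to 15.

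The part of the 1 µM rise already present at 0.5 µM, which has the untreated arrays in both of its terms, ran between 22.9% for ITM2B and 98.0% for TMSB15A, with a median of 64.8%. It was above 80% in 14 members and below 50% in 18. TMSB15A, a thymosin that binds actin monomers, read 9.78 and 9.62 untreated, 10.75 and 10.80 at 0.5 µM, 10.72 and 10.87 at 1 µM, and 9.67 and 9.71 in WT. The 2 doses overlapped. H2BC5 stood at the other side: its ILMN_1651496 feature was higher by 1.38 ± 0.11 at 1 µM than at 0.5 µM (SE; limma adjusted p = 0.00853). KCNS3, a modulatory subunit of potassium channels, read 5.33 and 5.14 untreated, 6.45 and 6.40 at 0.5 µM, 7.47 and 7.46 at 1 µM, and 5.36 and 5.39 in WT. It gained 1.04 ± 0.10 between the doses (SE; limma adjusted p = 0.0119). MVP, the major vault protein, gained 0.81 (limma adjusted p = 0.0454) and GJB2, the gap junction protein connexin 26, gained 0.68 (limma adjusted p = 0.0342). The 1 µM arrays chose the members, so these gains between the doses are a description. With only the 4 arrays compared in the fit, 0 members were called between the doses.

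**Figure D3:**
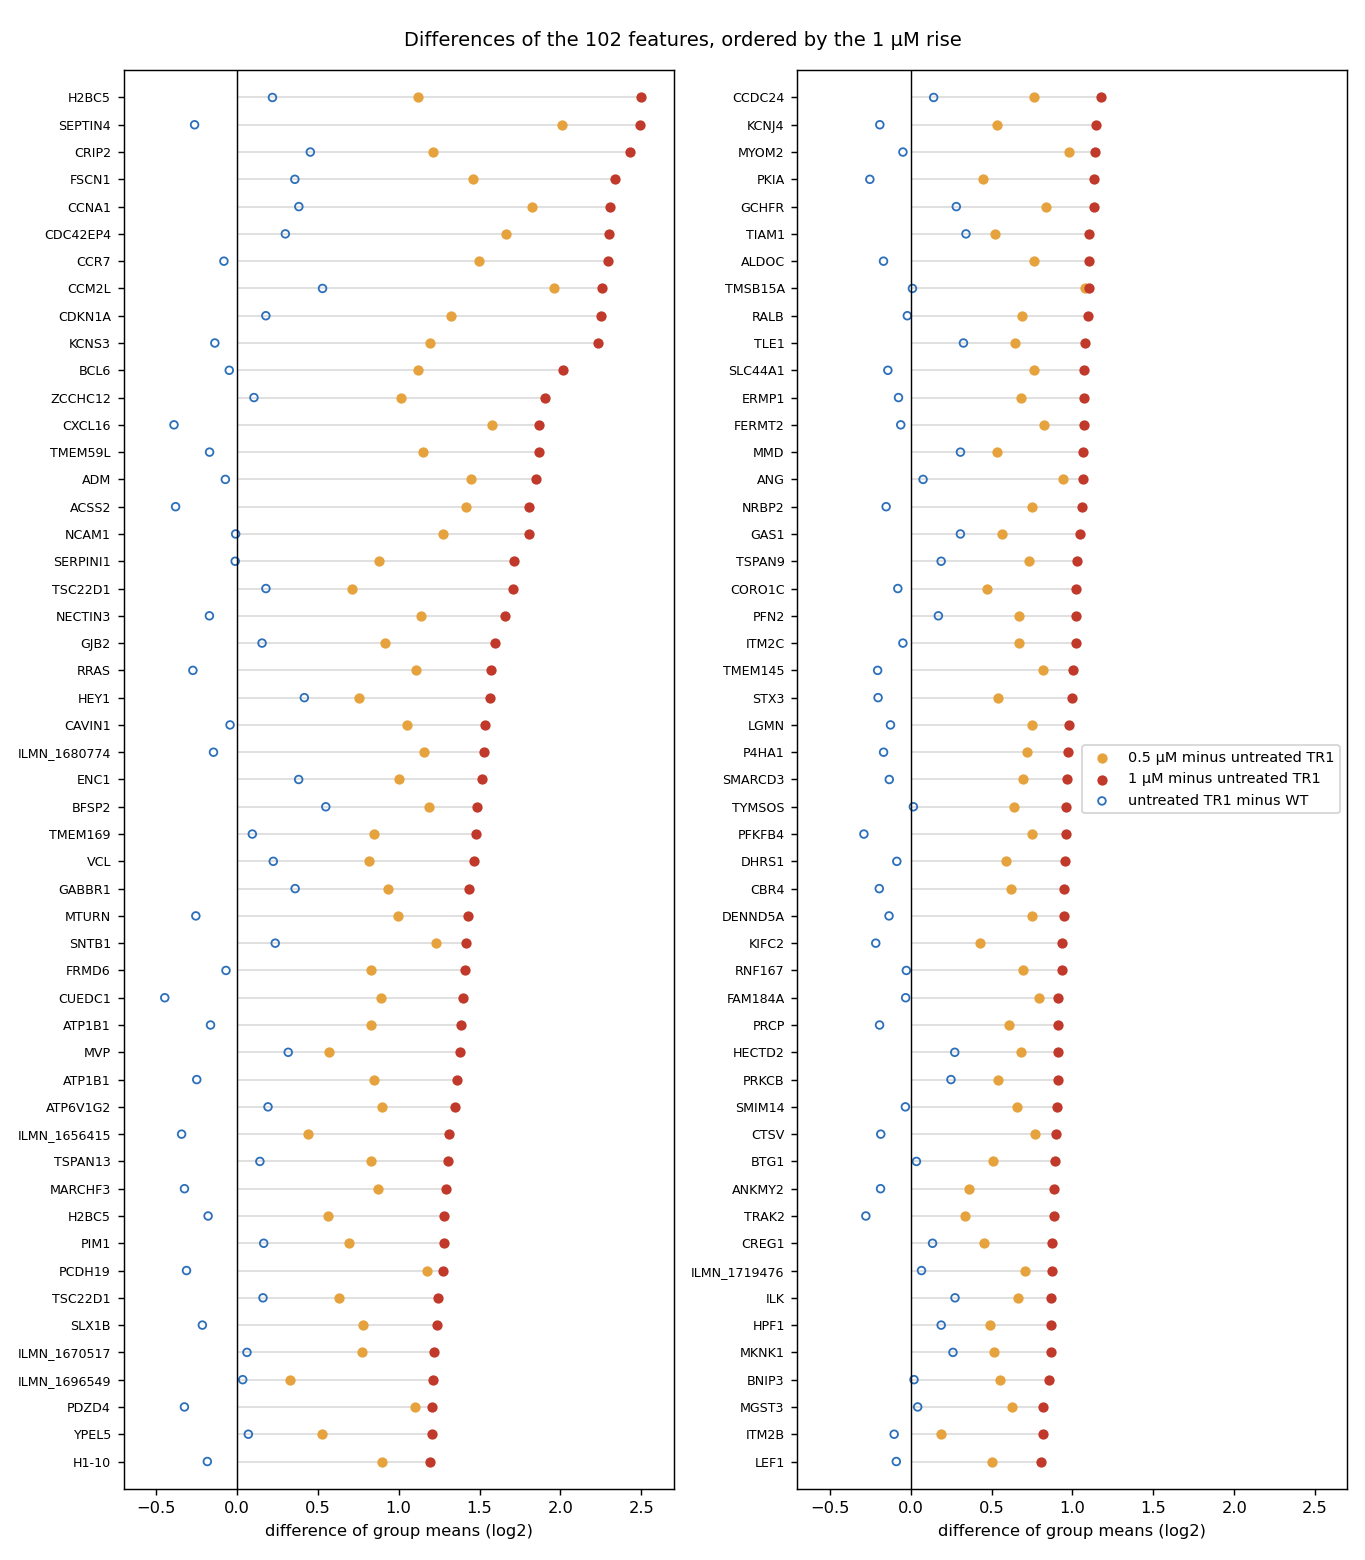
Log2 differences of group means (x axis) for each of the 102 features (y axis, ordered by the 1 µM rise): filled orange for 0.5 µM minus untreated TR1, filled red for 1 µM minus untreated TR1, and open blue for untreated TR1 minus WT. The orange points run between 0.19 and 2.01 and all lie left of their red points, which start at 0.81.

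To describe what the genes do, the members were sorted by textbook role into groups made after their values were seen, and no group was tested for enrichment. The counts below stand beside 75 and 80 of all 102 members (73.5% and 78.4%) called higher at 0.5 µM than in untreated TR1 and in WT, and beside 4.42% and 11.5% of all features, and no difference between the groups was tested. Among 15 features of chromatin, transcription and cell cycle genes, 12 were called higher at 0.5 µM than in untreated TR1 and 14 were called higher than in WT. H1-10, a linker histone variant, read 9.89 and 10.11 untreated, 10.91 and 10.89 at 0.5 µM, 11.12 and 11.28 at 1 µM, and 10.02 and 10.35 in WT. Its 0.5 µM difference from untreated TR1 was 0.90 ± 0.14 (SE; limma adjusted p = 0.00894), with no overlap between the groups. The second H2BC5 feature, ILMN_1758623, read 7.18 and 7.30 untreated, 7.82 and 7.78 at 0.5 µM, 8.58 and 8.47 at 1 µM, and 7.37 and 7.47 in WT. Both H2BC5 features climbed with dose, but the 0.5 µM difference was 1.12 for ILMN_1651496 and 0.56 for ILMN_1758623 (limma adjusted p = 0.00183 and 0.0165). The H2B genes are much alike in sequence, and cross-hybridisation of these probes was not tested.

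CDKN1A was higher at 0.5 µM by 1.33 ± 0.17 (SE; limma adjusted p = 0.00453), or 2.51-fold. BCL6, a transcriptional repressor of germinal centre B cells and follicular helper T cells, rose by 1.12 (limma adjusted p = 0.00968). TSC22D1, a leucine zipper regulator, had 2 features: ILMN_1787567 rose by 0.63 (limma adjusted p = 0.0107), while ILMN_1692177 differed by 0.71 without a call (limma adjusted p = 0.0802). LEF1, the T cell partner of beta-catenin, read 13.25 and 13.30 untreated, 13.71 and 13.85 at 0.5 µM, 14.07 and 14.09 at 1 µM, and 13.31 and 13.41 in WT. Although LEF1 had the brightest signal of the members, its arrays at each dose stood clear of those at the dose below, and the 0.5 µM rise was 0.51 (limma adjusted p = 0.0226). BTG1, an antiproliferative factor, differed by 0.51 at 0.5 µM without a call (limma adjusted p = 0.11).

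Actin, adhesion site and other cytoskeletal genes gave 15 features, of which 13 were called higher at 0.5 µM against untreated TR1 and 13 against WT. Their 0.5 µM differences from untreated TR1 ran between 0.43 and 2.01. Several encode parts of the link between integrins and actin: VCL (vinculin) rose by 0.81 (limma adjusted p = 0.00443), FERMT2 (kindlin-2) by 0.82 (adjusted p = 0.00519) and ILK (integrin-linked kinase) by 0.66 (adjusted p = 0.0103). VCL read 9.75 and 9.68 untreated, 10.49 and 10.57 at 0.5 µM, 11.23 and 11.12 at 1 µM, and 9.42 and 9.56 in WT, with no overlap between doses. FSCN1 was higher by 1.46 ± 0.18 (SE; limma adjusted p = 0.0037), and PFN2 (profilin 2) by 0.67 (adjusted p = 0.0176). CORO1C, a coronin that binds actin filaments, differed by 0.47 without a call (limma adjusted p = 0.0948). A fixed list of tubulins and actin regulators names none of these genes and held 0 members. Of its 24 genes tested, counted by any called feature, 4 were called higher and 1 lower at 1 µM than in untreated TR1. At 0.5 µM 1 was called higher. Of all features, 12.6% were called higher and 12.7% lower at 1 µM, and 4.42% higher at 0.5 µM.

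Genes of the cell surface, channels and secreted ligands gave 18 features, of which 15 were called higher at 0.5 µM against untreated TR1 and 16 against WT. NCAM1, the adhesion molecule CD56, read 5.92 and 5.65 untreated, 7.08 and 7.04 at 0.5 µM, 7.58 and 7.61 at 1 µM, and 5.91 and 5.67 in WT, a 0.5 µM rise of 1.28 (limma adjusted p = 0.00183). A further NCAM1 feature, ILMN_1777014, with a mean of 5.94 in untreated TR1, was called at neither dose. It differed by 0.27 at 0.5 µM and 0.36 at 1 µM (limma adjusted p = 0.397 and 0.175), so the rise holds for the member feature only. CCR7 rose by 1.5 ± 0.18 (SE; limma adjusted p = 0.00373). Both features of ATP1B1, the beta subunit of the sodium pump, gave close differences of 0.83 and 0.85 (limma adjusted p = 0.0078 and 0.00525). ADM, which encodes the peptide adrenomedullin, rose by 1.45 ± 0.28 (SE; limma adjusted p = 0.0215), with 8.40 and 9.47 on the 2 WT arrays. KCNJ4, an inward rectifier potassium channel, differed by 0.53 without a call (limma adjusted p = 0.215).

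Small GTPases, kinases and their regulators gave 9 features, 5 called against untreated TR1 and 6 against WT: RRAS rose by 1.11 (limma adjusted p = 0.0185), RALB by 0.69 (adjusted p = 0.0142) and the kinase PIM1 by 0.69 (adjusted p = 0.0177). PRKCB, protein kinase C beta, read 12.05 and 11.76 untreated, 12.48 and 12.41 at 0.5 µM, 12.84 and 12.80 at 1 µM, and 11.59 and 11.73 in WT. Its 0.5 µM arrays were above all untreated arrays, by 0.54 over untreated TR1 (limma adjusted p = 0.0353). Proteases, lysosomal proteins and their inhibitors gave 7 features, 5 called in each 0.5 µM comparison, with CTSV (cathepsin V) higher by 0.77 against untreated TR1 (limma adjusted p = 0.00492). Ubiquitin ligases and membrane traffic genes gave 6 features, 5 called against untreated TR1 and 4 against WT. The remaining 23 features, the 5 unnamed ones included, had 16 and 18 calls.

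The 9 features of metabolic enzymes and hypoxia-responsive genes had 4 calls against untreated TR1 and 4 against WT. In several of them the WT duplicates lay far apart. PFKFB4, a glycolysis regulator, read 10.91 and 10.85 untreated, 11.65 and 11.60 at 0.5 µM, 11.91 and 11.76 at 1 µM, and 10.32 and 12.00 in WT. WT array B thus lay above every SAHA array, and WT array A below every TR1 array. BNIP3, a mitophagy receptor known to be induced by hypoxia, read 12.53 and 12.54 untreated, 13.10 and 13.07 at 0.5 µM, 13.43 and 13.34 at 1 µM, and 11.93 and 13.09 in WT. ALDOC, a glycolytic aldolase, read 11.95 and 11.88 untreated, 12.69 and 12.67 at 0.5 µM, 13.13 and 12.92 at 1 µM, and 11.55 and 12.62 in WT. In both genes the TR1 groups were tight and separate, and WT array B came close to the 0.5 µM arrays.

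The 6 members not called at 1 µM were TMEM145, LGMN (the lysosomal protease legumain), P4HA1 (a collagen prolyl hydroxylase), PFKFB4, KIFC2 and BNIP3. In a fit of the 6 TR1 arrays alone, all but KIFC2 were called at 1 µM: for PFKFB4 the limma adjusted p was 0.00112, against 0.137 with the WT arrays in the fit. The same fit called 7 of the 9 metabolic features at 0.5 µM, among them ALDOC (limma adjusted p = 0.0095), BNIP3 (0.0144) and PFKFB4 (0.0082). Over all members it called 86 at 0.5 µM, beside 5.43% of all features called higher, and 101 at 1 µM, beside 1875 of the 13407 features (14%). The 1 µM and untreated TR1 arrays chose the members, so nothing is read from the 1 µM calls of this fit.

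Over the 102 members the median distance between duplicates was 0.10 in untreated TR1, 0.09 at 0.5 µM, 0.10 at 1 µM and 0.31 in WT, while over all features tested it was 0.12, 0.11, 0.13 and 0.16. WT array B was the higher in 71 members. It was higher by 0.5 or more in 31, beside 3.57% of all features, and lower by 0.5 or more in 2, beside 2.16%. The 9 members higher by 1 or more were PFKFB4, LGMN, TMEM145, CDC42EP4, P4HA1, BNIP3, CXCL16, ALDOC and ADM, and SERPINI1, the protease inhibitor neuroserpin, was lower by 1.11. WT array B lay above the mean 0.5 µM level in 9 members and above the mean 1 µM level in 1, and WT array A did so in 0 members at 0.5 µM. Their mean was what the choice of members compared with TR1: on the selection scale, 58 of the 102 lay within 0.3 of both WT arrays taken singly. With WT array A alone the rule gave 93 members, 78 of them shared with the 102, and with WT array B alone it gave 84, 74 of them shared. What set the WT duplicates apart was not tested.

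**Figure D4:**
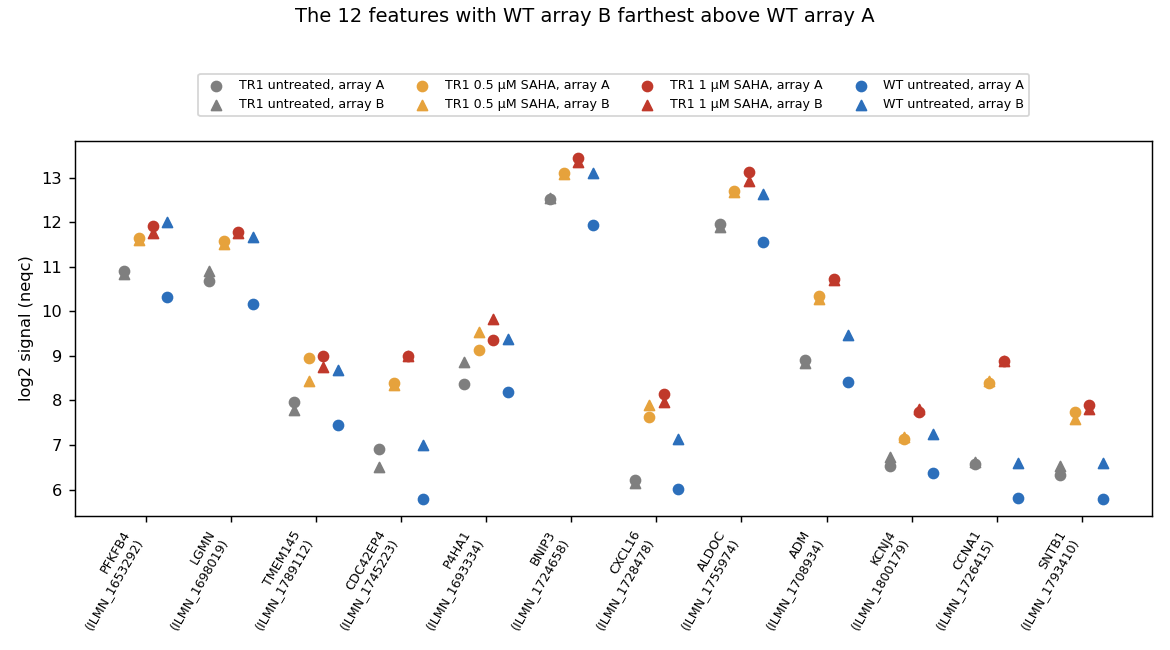
Log2 signal (y axis) of the 12 features (x axis) with WT array B farthest above WT array A; circles are array A, triangles array B, and colours the 4 groups, with TR1 untreated, TR1 0.5 µM, TR1 1 µM and WT placed left to right. The WT arrays of PFKFB4 lie 1.68 apart, and array B is above every SAHA array there.

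A probe reads 1 stretch of a transcript, and 26 further features for 22 of the member genes were on the array without being members. Of these, 15 passed the filter, for 13 genes: 9 were called higher and 0 lower at 1 µM than in untreated TR1, and 5 were called higher and 0 lower at 0.5 µM. Over all features tested, 12.6% were called higher at 1 µM and 4.42% at 0.5 µM. A second feature of ANG (angiogenin, a secreted ribonuclease) was 0.70 higher at 0.5 µM (limma adjusted p = 0.0183), beside 0.94 for the member feature (adjusted p = 0.0338). For ACSS2, an enzyme that makes acetyl-CoA out of acetate, the features disagreed at 0.5 µM: the member rose by 1.41 (limma adjusted p = 0.00626), while the other differed by -0.30 (adjusted p = 0.266). That other feature was dim, with a mean of 5.42 in untreated TR1 beside 7.04 for the member. At 0.5 µM its mean was 5.13, and it was detected on 1 array. KCNJ4 likewise had 2 further features, at -0.28 and -0.15 (limma adjusted p = 0.109 and 0.59). Their means in untreated TR1 were 6.01 and 5.45, beside 6.62 for the KCNJ4 member. At 1 µM the other ACSS2 feature differed by 0.07 and the 2 of KCNJ4 by 0.005 and -0.06 (limma adjusted p = 0.768, 0.976 and 0.795). Other dim features went both ways at 0.5 µM. A further MARCHF3 feature, at 5.07 in untreated TR1, was 0.74 higher (limma adjusted p = 0.00489). A further PKIA feature, at 5.59, differed by 0.22 without a call (limma adjusted p = 0.547). Why features of the same gene differed was not tested.

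Of the gene lists used for the pathways around SAHA, which were drawn up with earlier results of these data known, few genes were members. The counts at 1 µM stand beside 12.6% of all features called higher and 12.7% called lower, those at 0.5 µM beside 4.42% called higher, and no list was tested. A gene counted as called if any of its tested features was, while these shares are of single features. Among 23 histone genes tested, 4 were called higher and 2 lower at 1 µM than in untreated TR1, and H2BC5 and H1-10 were the members. The histones called lower were MACROH2A1 (-0.96) and H2AJ (-0.35). Of 5 cyclin-dependent kinase inhibitors tested, CDKN1A and CDKN3 (0.55) were called higher at 1 µM. Of 13 p53 target genes tested, 7 were called higher and 1 lower at 1 µM, with 4 higher at 0.5 µM, where TP53INP1 rose by 0.74, GADD45A by 0.63 and SESN1 by 0.59 beside CDKN1A. Among 14 stress-induced growth arrest factors, 6 were called higher and 0 lower at 1 µM, BTG1 among them, and of 18 BCL2 family genes 3 were called higher and 4 lower. Of 14 histone deacetylases, the class of enzymes SAHA acts on, 2 were called higher and 1 lower.

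Across the whole series, median raw signal ran between 77.6 and 115 per array, and between 11922 and 12987 features were detected on each. Of 15 T cell markers 13 were tested, and CD4 and CD8A were undetected in every group. At 1 µM, 8 of the 13 were called lower and 0 higher than in untreated TR1, among them CD3E (-1.05) and CD7 (-0.98), beside 12.7% of all features called lower. Their summed signal was 25926 to 26133 in untreated TR1, 21286 to 21970 at 0.5 µM, 16082 to 17669 at 1 µM, and 21667 to 22741 in WT. Of 5 neuronal markers tested, SCG2, SYP and ENO2 were called higher at 1 µM, beside 12.6% of all features, and the summed signal of the 11 on the array was 1772 to 1808 untreated, 2346 to 2557 at 0.5 µM, 2462 to 2756 at 1 µM and 1728 to 2136 in WT, with SNAP25, STMN2, SYT1, GAP43, CHGA and UCHL1 undetected in every group. The part of these markers in the members' changes was not tested.

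By RefSeq position on GRCh38.p14, the build of the array's design not being given in the sources used here, chromosome 17 held 9 of the 94 member genes (9.57%, against 6.11% of tested genes) and chromosome 1 held 5 (5.32% against 10.1%). ANKMY2 and TSPAN13, 108 kb apart on chromosome 7, were the closest pair. At 0.5 µM TSPAN13 was 0.83 higher than in untreated TR1 (limma adjusted p = 0.00252), and ANKMY2 differed by 0.36 without a call (adjusted p = 0.122).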

How the data were processed

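Total RNA of 8 cultures (4 groups, 2 biological duplicates each) was amplified and hybridised to Illumina HumanRef-8 BeadChips, per the labels' protocols. The deposited table holds an intensity per feature and array on a linear scale, not normalized, and a detection p-value beside each intensity, per the file headers. The authors' series matrix holds intensity values that were quantile-normalized on a linear scale, as its equal medians show, and it served as an alternative. The submitters' processing notes name limma; the sources used here give neither its settings nor the signal extraction program. Columns were assigned to groups by name, and 0 columns were left unused. Signals were corrected with limma 3.58.1 (R 4.3.3) by neqc, with an offset of 16, which shrinks the changes of dim features. One mean per group was fitted over all 8 arrays with lmFit and eBayes (4 residual and 4.22 prior degrees of freedom, two-sided), and the script was tested on simulated data. Features were named through the platform annotation: 19715 had 1 gene, 0 several and 2469 none, and 19695 features had their gene found in RefSeq. The members and lists were chosen with earlier results of these data known. Named were the 10 largest rises, the 5 highest signals, the 5 largest and 5 smallest changes at 0.5 µM, list members, genes with 2 features, threshold neighbours and members called between doses, which gave 25 genes besides the neighbours. Other genes were chosen after their values were seen. The number of arrays limits the precision. Alternatives covered background correction, normalization, filters, variance estimation, the authors' values, a replicate block and left-out arrays.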

Additional observations from a re-analysis of the deposited data

How the results depend on the processing

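Of the recomputed values, 68 planned and 6 added ones stayed close to those reported, and 25 planned and 4 added ones moved. The band for counts was wide: 84 members found by the rule with WT array B alone, against 102, were taken as close. Finding 53 members with a rise of 1.0 was taken as moved. The cause of these moves was not tested. Each fit with arrays left out that called fewer members also called a smaller share of all features. Counts of members cannot change direction, and the median change over WT stayed positive in every setting. Against the 75 members called at 0.5 µM over untreated TR1, leaving out 1 array gave 22 to 86, and leaving out the dimmest and brightest arrays, chosen after seeing the data, gave 6. The 80 called over WT became 56 to 86 with 1 array left out. Their median change of 0.79 was 0.63 without background correction, 0.63 with the authors' series matrix values and 0.63 with those values and a replicate block, and it was 0.71 to 0.89 with 1 array left out. The 7 called between doses became 30 without background correction, 15 with median scaling, 30 with a variance trend and robust variances, 0 with only the 4 arrays compared, 30 with the series matrix values, 0 without the dimmest and brightest arrays, 15 without both WT arrays, and 0 to 15 with 1 array left out. The 96 called at 1 µM over untreated TR1 became 61 without the dimmest and brightest arrays, and 89 to 101 with 1 array left out. The rule found 174 members on the background-corrected scale, of which 82 were among the 102, and 53 with a rise of 1.0 required. Array letters were not taken as pairing the groups, since the labels name no shared source. Over features, the distances between arrays A and B correlated between groups at 0.09 (WT with 0.5 µM) to 0.28, and at 0.22 to 0.28 among the TR1 groups (0.23 to 0.32 by labelled number). With a replicate block by letter the calls were 79 and 85 at 0.5 µM over untreated TR1 and over WT, 13 between doses and 98 at 1 µM. With the series matrix values and a replicate block by labelled number, the calls between doses were 52. Signal over background limits the dim members, since the offset holds their differences down.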

Other observations

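Genes known to be induced by hypoxia other than the members were read on the WT arrays, from a list of 22 drawn up after the WT duplicates of PFKFB4, BNIP3, ALDOC and P4HA1 had been seen to differ. Of 20 features tested for 17 of these genes, WT array B was higher than WT array A in 18 and higher by 0.5 or more in 10, beside 3.57% of all features tested, with a median distance of 0.50. NDRG1 (1.06), one of the VEGFA features (1.00) and PFKFB3 (0.99) had the widest distances, and the other VEGFA feature lay 0.42 the other way (-0.42). At 1 µM SAHA 5 of the 20 were called higher and 0 lower than in untreated TR1 by limma, beside 12.6% and 12.7% of all features.

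A fixed list of lysosome and autophagy genes held none of the members, whose own lysosomal genes, such as LGMN and CTSV, it does not name. Of its 23 genes tested, counted by any called feature, 9 were called higher and 0 lower at 1 µM than in untreated TR1. Of all single features, 12.6% were called higher and 12.7% lower. GABARAPL1, an autophagosome protein, rose by 1.39 at 1 µM (0.91 at 0.5 µM; limma adjusted p = 0.000266 and 0.00558). WIPI1, a phosphoinositide-binding autophagy protein, rose by 1.02 at 1 µM (0.51 at 0.5 µM; limma adjusted p = 0.000696 and 0.0347).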
